A study of Bos taurus with 8 samples.

Results

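The 9 genes described here were grouped as chemokines and cytokines induced by culture, namely CXCL5, CXCL2, CXCL3, CXCL8, CXCL12, CCL2, IL6, LIF and IL1R2. The last codes for a receptor and the others for secreted factors. All 9 of the 9 were found by symbol among the 21880 annotated genes. They were chosen for their measured levels in early culture against freshly isolated muscle, so that contrast, and that of passage 2 with passage 0, are given as descriptions with no test. In fibro-adipogenic progenitors 7 of the genes were higher at passage 0 in 8 or 9 of 9 donors, namely CXCL5, CXCL2, CXCL3, CXCL8, CCL2, IL6 and IL1R2, with CXCL3 and CCL2 already well above 0 in muscle. CXCL12 was lower in culture in those cells, and LIF was close to absent at every timepoint.

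Single cells were sequenced at 5 timepoints from the semitendinosus muscle of 10 Belgian Blue cattle, 5 calves and 5 adults. Donors 6, 8 and 10 were male and the other donors female. Timepoints were digested muscle, passage 0 (P0, 72 h into culture without serum), and P2, P5 and P8. According to the study's methods the cells at P0 were unsorted, although the labels of the P0 samples also name sorted populations. From then on each donor had a single culture: donors 1, 2 and 9 as unsorted cells on fibronectin, donors 5, 6 and 10 as sorted satellite cells (SCs) on laminin, and donors 4, 7 and 8 as sorted fibro-adipogenic progenitors (FAPs) on collagen, while donor 3 gave muscle only. Kind of culture, coating, sort and donors changed together and cannot be told apart, and neither can timepoint and library, since the donors of a timepoint were pooled. The donor was the replicate throughout: unique molecular identifiers (UMIs) were summed over the cells of a donor, cell type and timepoint where these numbered at least 10, and levels are given in CPM, that is UMIs per 1000000 of that sum.

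Chemokines are small secreted proteins that draw leukocytes along a gradient. CXCL5, CXCL2, CXCL3 and CXCL8 belong to the branch that attracts neutrophils through the receptors CXCR1 and CXCR2, CCL2 attracts monocytes, and CXCL12 binds CXCR4 and retains stem and progenitor cells in their niche. IL6 and LIF signal through the shared receptor subunit gp130 (IL6ST), and IL1R2 is a decoy receptor that binds interleukin 1 without passing on a signal. In injured muscle FAPs, endothelial cells and macrophages are known sources of such factors, many of which are under control of the transcription factor NF-kB.

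Between 2772 and 10405 cells per timepoint entered the sums, with a median of 4184 UMIs per cell in muscle and of 18340 to 27239.5 in culture, and any pair of timepoints shared 4 to 29 cell barcodes. Levels of some markers are given here within annotated types. PDGFRA of FAPs was at 794 CPM in muscle and 277 at P0 in FAPs, CDH5 of vascular endothelial cells (VECs) at 638 and 786 in VECs, and MYF5 of SCs at 793 and 59.6 in SCs. Monocytes and macrophages (MPs) kept CD14 at 355 and 375, while their C1QA was at 6898 and 515 and their S100A9 at 349 and 1846. The sum of 6 MP markers in MPs was at 7313 to 19613 CPM in muscle and at 950 to 2051 at P0, without overlap. Over the whole lists edgeR called 4 of 4 FAP markers lower at P0 than in muscle in FAPs. It called 4 of 4 tested SC markers lower in SCs and 3 of 6 VEC markers lower in VECs. In SCs it also called 3 of 3 tested FAP markers higher. The summed FAP markers stood at 973.5 to 2009 CPM in SCs at P0, against 2831 to 4487 in FAPs. The names come from the study's clustering of the same expression values.

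CXCL5 had the widest fold difference of the 4 neutrophil-attracting chemokines in FAPs. In FAPs of muscle it was at 4.22 ± 5.76 CPM (SD, n = 10; 26 UMIs in all), with a lowest, median and highest donor of 0, 2.12 and 18.2. In FAPs at P0 it was at 7108 ± 2204 (SD, n = 9), from 3929 through a median of 8186 to 9552. The groups did not overlap, all 9 donors with both timepoints were higher at P0, and the means differed 1682-fold. SCs held no CXCL5 UMI in muscle and 1103 ± 501 CPM at P0, at least 922-fold more when the muscle sums are set to a floor of 3 counts over the group. MPs reached 14875 ± 3977 (SD, n = 7) at P0, from 8994 to 20638, against 4.22 in muscle. VECs had 734 ± 181 at P0 and 8.66 in muscle, or 683 and 1.26 without donor 2, and smooth muscle and mesenchymal cells (SMMCs) 2167 ± 1089 and 4.2. For reference, edgeR called 43.4% of all genes tested in FAPs between P0 and muscle, 34.3% in SCs and 35.1% in VECs, and nothing is read from the members' share since they were selected on this contrast.

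The range of every cell type at P0 overlapped with that of the next in the order MPs, FAPs, lymphatic endothelial cells (LECs, 1656 to 4610), SMMCs, SCs and VECs for CXCL5. Within a donor, however, the MP level was above the FAP level in 7 of 7, at 235 ± 49.0% of it.

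CXCL2 and CXCL8 were likewise near 0 in FAPs of muscle and higher at P0. CXCL2 was at 1.18 ± 1.45 in muscle FAPs and at 398 ± 181 at P0, from 211 to 679, 337-fold higher and without overlap. CXCL8, a potent neutrophil attractant, was at 1.61 ± 1.94 and at 89.5 ± 33.0, 55.5-fold higher and without overlap. Both had other sources in muscle already. MPs of muscle held CXCL2 at 461 ± 471 and CXCL8 at 485 ± 389, and at P0 they held 5135 ± 1728 and 2297 ± 766, higher in 7 of 7 donors for either gene. Neutrophils, whose cells numbered 10 or more in 1 muscle donor only, had CXCL8 at 4665 there and were not annotated in culture. In VECs CXCL2 was at 66.7 ± 185 in muscle, with a median of 2.08 and donor 6 alone at 593, and at 91.6 ± 53.0 at P0 with a median of 88.2. It was higher at P0 in 7 of 9 donors with overlapping groups. The means differed 1.37-fold over all donors and 10.99-fold without donor 6, from 8.27 to 90.9. These values without 1 donor, here and for 2 other genes, were added after the data had been seen.

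CXCL3 moved in opposite directions in different cell types. In muscle it was highest in VECs, at 3408 ± 1719 with a lowest, median and highest donor of 2325, 2901 and 8107. At P0 VECs held 173 ± 50.3, from 115 to 264, so the level was 19.6-fold lower, lower in 9 of 9 donors and without overlap. In FAPs CXCL3 went from 367 ± 128 to 596 ± 162, 1.62-fold, higher in 8 of 9 donors with overlapping groups. SCs went from 249 ± 227 to 422 ± 127 in the same way, 1.70-fold and in 8 of 9 donors. MPs stood at 2091 ± 1088 and 2347 ± 753, and 3 of 7 donors were higher at P0.

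CXCL2, CXCL3 and the neighbouring GRO1, which codes for bovine CXCL1, are closely related. How reads that fit more than one of them were treated is not given in the sources used here. Their single levels are therefore uncertain. In RefSeq (assembly ARS-UCD2.0, used here for names and order only) PF4, CXCL2, CXCL3, GRO1 and MTHFD2L follow each other, and CXCL8 and CXCL5 lie near each other between RASSF6 and PPBP, with LOC534181 between the pair. GRO1, which is no member, moved as CXCL2 did in FAPs, from 22.0 to 427, and as CXCL3 did in VECs, from 588 to 86.3.

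CXCL12 was the member that was lower at P0 in most types. FAPs of muscle held 890 ± 155, from 663 to 1146, and FAPs at P0 32.3 ± 21.1, from 16.4 to 85 with donor 5 as the highest. Every one of the 9 donors was lower at P0, the groups did not overlap and the means differed 27.6-fold. VECs were lower in 9 of 9 donors as well, from 794 ± 321 to 82.2 ± 39.5, 9.66-fold. SMMCs were 13.7-fold lower in 7 of 7 donors and SCs 5.90-fold lower in 9 of 9, with overlapping groups in both. In muscle FAPs and VECs held the most CXCL12, and their ranges overlapped. At P0 VECs stood at 330 ± 211% of the FAP level of the same donor.

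CCL2 had its highest means in muscle in SMMCs, MPs and FAPs, with 55 UMIs in VECs, 45 in SCs and 32 in lymphocytes. At P0 it was counted in all 6 types. Relative to FAPs of the same donor, its range in SCs, VECs and LECs overlapped with that of a FAP marker. VECs went from 12.9 to 127 CPM, 9.87-fold and higher in 9 of 9 donors. SMMCs held the most in muscle with 2275 ± 1949, from 201 to 5253, and at P0 they were lower in 6 of 7 donors with 538 ± 161. MPs went from 1111 ± 1021 to 6905 ± 1965, 6.22-fold and higher in 7 of 7 donors. FAPs went from 278 ± 240 to 694 ± 204, 2.50-fold and higher in 8 of 9 donors, with overlapping groups. SCs went from 13.1 ± 22.6 to 503 ± 171, 38.3-fold, from a range of 0 to 73.1 to one of 289 to 777 in which no donor overlapped with muscle.

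IL6, a cytokine of acute inflammation that also acts on SC proliferation, was near 0 in muscle in most types. FAPs had 5.02 ± 11.3 in muscle, 6 of 10 donors were at 0 and donor 5 alone reached 36.6. At P0 they had 401 ± 142, from 254 to 649, 80.0-fold higher and without overlap, and 275-fold higher without donor 5 (1.51 and 415). VECs were the highest type in muscle with 35.1 ± 33.4 and went to 89.9 ± 23.8, 2.56-fold and higher in 9 of 9 donors with overlapping groups. MPs went from 3 UMIs in 10 donors to 428 ± 243 CPM.

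LIF, which supports stem cell self-renewal and myoblast proliferation, had 3 UMIs over 10 donors in muscle FAPs and 28 over 9 donors at P0, that is 0.445 ± 1.00 and 0.221 ± 0.163 CPM. It passed the filter on low counts in no comparison and is named below only where it was counted.

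IL1R2 was at or near 0 in muscle outside MPs, where it stood at 15.6 ± 12.6, and the neutrophils of 1 donor, at 45.5 from 2 UMIs. SCs had no UMI in muscle and 239 ± 130 at P0, with a lowest, median and highest donor of 114, 245 and 549, at least 229-fold more against the floor. FAPs had 3 UMIs in muscle and 222 ± 127 CPM at P0, from 101.1 to 525. Donor 5 was the highest in both types, and without overlap every donor was higher at P0 in both. VECs, SMMCs and LECs also had no UMI in muscle, and held 31.9 ± 8.22, 30.5 ± 10.4 and 37.2 ± 8.17 at P0. Relative to FAPs of the same donor, the range in each of these types, and in SCs and MPs, overlapped at P0 with that of a FAP marker.

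**Figure D1:**
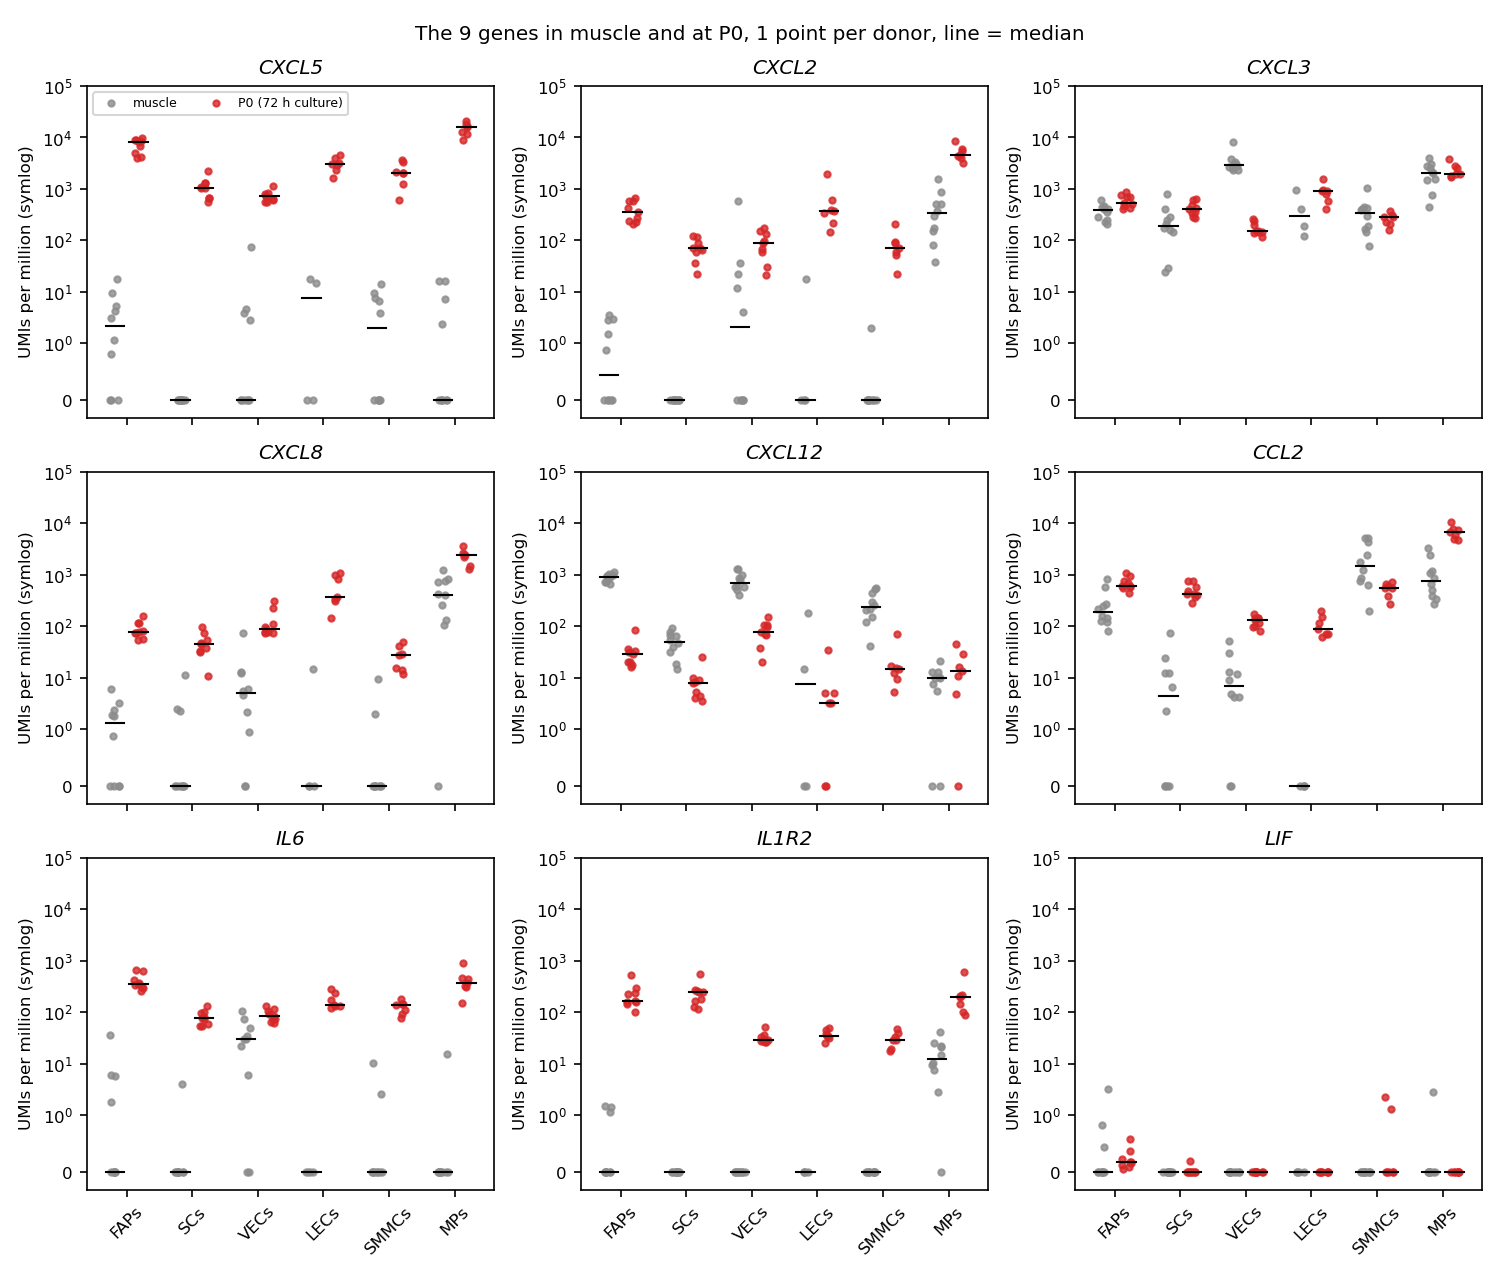
Level of each gene in CPM (y, linear near 0 and logarithmic above) in the annotated cell types (x); each point is 1 donor, gray for muscle and red for P0, and the short lines are medians. CXCL5, IL6 and IL1R2 in FAPs sit above all muscle donors at P0 (CXCL5 3929 to 9552 against at most 18.2), whereas CXCL12 in FAPs and CXCL3 in VECs sit below them.

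Free RNA of broken cells can place a few UMIs of an abundant transcript in every droplet, so the levels at P0 were set beside those of 3 FAP markers. In VECs the markers PDGFRA, DCN and LUM stood at 8.36 ± 2.43%, 9.68 ± 3.07% and 13.2 ± 3.76% of the FAP level of the same donor (SD, n = 9), and CXCL5 stood at 11.7 ± 5.33%. In SCs the markers stood at 22.5 ± 4.62%, 41.1 ± 9.90% and 76.9 ± 24.1%, and CXCL5 at 15.4 ± 3.86%. CXCL5 in VECs was thus within the marker means and in SCs below them, though its range of 12 to 25.0% overlapped with that of PDGFRA, and is not read here as expression by those cells. The remaining FAP marker, SCARA5, was left aside since it was low in FAPs themselves at P0, at 8.38 ± 17.5 CPM. It stood at 39.3 ± 37.7% of the FAP level in SCs, 18.8 ± 21.3% in VECs and 151 ± 335% in MPs, the last from 2 UMIs.

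IL6 at 20.7 ± 4.95% and CXCL2 at 20.2 ± 12.6% in SCs were level with PDGFRA within the spread, and their means were under those of DCN and LUM. IL1R2 in SCs was at 115 ± 50.1% of the FAP level and above it in 6 of 9 donors. Its mean was over those of the 3 markers, and its range of 75.6 to 242% overlapped with that of LUM, 34.7 to 117%. CCL2 and CXCL3 in SCs were at 72.4 ± 11.8% and 71.9 ± 16.8%, over PDGFRA and DCN and under LUM. In VECs the means of CXCL12 at 330%, CXCL8 at 167 ± 140%, CXCL3 at 31.6%, IL6 at 24.6%, CXCL2 at 23.1%, CCL2 at 20.3% and IL1R2 at 17.4% were over those of the 3 markers. The ranges of the last 5 overlapped with that of LUM, and LIF had no UMI there.

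In SMMCs PDGFRA, DCN and LUM stood at 12.6%, 23.1% and 17.9% of the FAP level (n = 7). IL1R2 at 16.6 ± 2.94% and CXCL2 at 20.4 ± 10.7% were within them. CXCL5 at 29.6%, CXCL8 at 32.9%, IL6 at 34.3% and CXCL12 at 82.4% were over these means, with ranges overlapping that of DCN. CXCL3 at 46.6% and CCL2 at 88.5% did not overlap with the markers. In LECs the markers stood at 15.6%, 14.4% and 17.2%, CCL2 was at 15.3 ± 8.59% and IL1R2 at 22.8 ± 7.93%, with overlapping ranges. CXCL12 at 26.0%, CXCL5 at 41.1% and IL6 at 43.0% overlapped with PDGFRA as well. CXCL3 at 160%, CXCL2 at 193% and CXCL8 at 657% did not overlap with the markers. A gene whose range overlapped with that of any of these markers is not read here as expression by that type. In SCs this holds for every member, and in VECs for all counted members but CXCL12 and CXCL8. LUM in SCs was itself above the FAP level in 2 of 9 donors. Overlap with it therefore cannot tell free RNA from expression, and the source of these UMIs was not tested.

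In MPs the markers stood at 35.2% to 43.2% of the FAP level, and 5 of the chemokines stood above the FAP level itself in 7 of 7 donors. CXCL8 was at 2677 ± 1019%, CXCL2 at 1489 ± 687%, CCL2 at 1070 ± 475%, CXCL3 at 419 ± 77.3% and CXCL5 at 235%. IL6 and IL1R2 in MPs were near the FAP level, at 105 ± 47.5% and 109 ± 89.5%, and their ranges overlapped with that of LUM. Beside this, the granulocyte markers S100A8 and S100A12 in MPs went from means of 302 and 788 in muscle to 1684 and 3259 at P0, while CSF3R had no UMI in MPs at P0. The sum of 4 granulocyte markers in MPs had a median of 187 CPM in muscle, from 4.935 to 5108. At P0 its median was 7029.5, from 3683 to 9598. The part of that shift in the MP levels was not tested. Granulocyte markers were higher at P0 in FAPs too, where 3 of the 3 tested were called, with a median log2 fold change of 3.65 against 0.03 over all genes. Their summed level over 4 markers went from 2.20 to 12.7 CPM in muscle FAPs to 20.1 to 138 at P0, while CSF3R among them had 1 UMI in FAPs at P0. The part of these markers in the FAP levels was not tested.

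**Figure D2:**
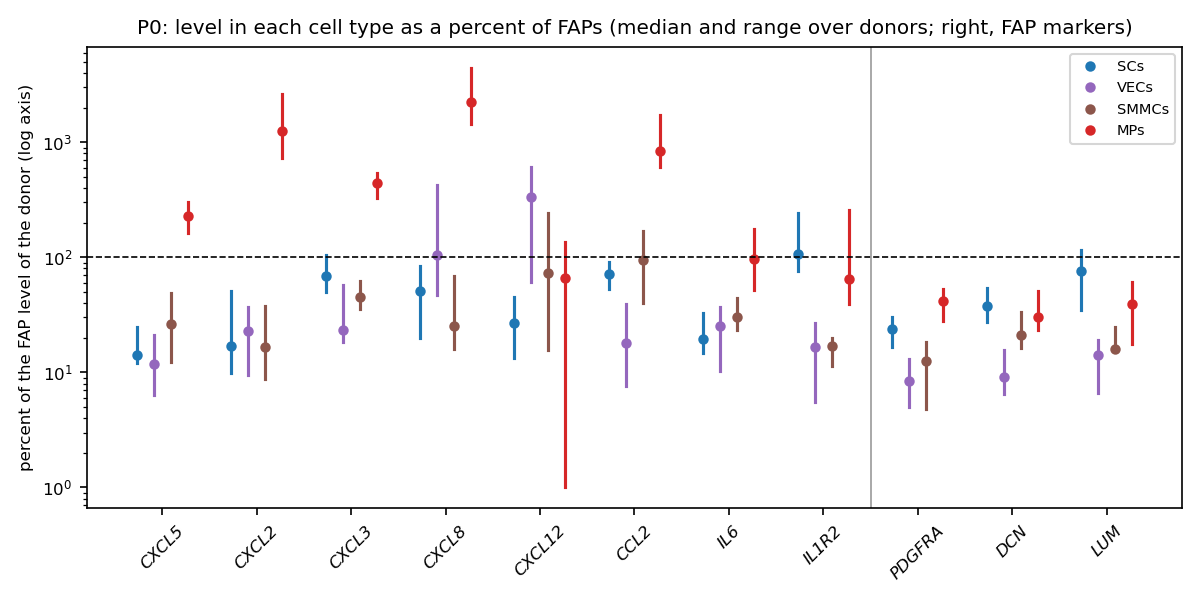
Level at P0 in SCs, VECs, SMMCs and MPs as a percent of the FAP level of the same donor (y, log axis) for 8 genes and, right of the line, 3 FAP markers (x); points are medians and bars the range over donors, and the dashed line marks 100%. The bar of CXCL12 in MPs ends at the lower edge since its lowest donor is at 0. MPs lie above the line for all 5 CXC and CC chemokines other than CXCL12, and SCs reach it for IL1R2 (mean 115%) but not for CXCL5 (mean 15.4%).

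How the genes were spread among FAPs was read after each cell had been thinned to 2000 UMIs, which left 1193 FAPs of muscle and 5655 at P0. In muscle, averaged over donors, CXCL12 was found in 69.1% of FAPs, CXCL3 in 23.3% and CCL2 in 13%, and each other member in under 1%. At P0 CXCL5 was found in 97.5% of them, CCL2 and CXCL3 each in 56.3%, IL6 in 37.2%, CXCL2 in 36.1%, IL1R2 in 26.8%, CXCL8 in 14.6% and CXCL12 in 6.31%. At 4000 UMIs per cell, the alternative, the shares at P0 were 99.2% for CXCL5, 72.9% for CXCL3, 73.1% for CCL2, 50.2% for IL6, 48.4% for CXCL2, 39.7% for IL1R2, 23.9% for CXCL8 and 11% for CXCL12. Without thinning they ran from 38.1% for CXCL12 to 99.8% for CXCL5. CXCL5 was also found in 72.0% of thinned SCs and 68.9% of thinned VECs, while the FAP marker PDGFRA was found in 38.5% of FAPs, 10.9% of SCs and 5.09% of VECs.

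Lists of related genes were set beside the members between P0 and muscle. The lists were chosen with earlier results of these data known, so their counts are a description and support nothing. EdgeR calls were made at an adjusted p below 0.05 together with a log2 fold change beyond 1 in size. In FAPs 43.4% of all tested genes were called and their median log2 fold change was 0.03, so a list's count is to be read against those. Of 4 other CXC chemokines tested in FAPs 3 were lower at P0 and the list's median was -4.00, with CXCL10, CXCL11 and CXCL14 at log2 fold changes of -5.69, -4.51 and -3.49. Of 6 CC chemokines 4 were lower and 1 higher, led by CCL14 (-7.88), CCL19 (-7.18) and CCL26 (-5.82). All 3 called chemokine receptors of 4 were lower, namely the scavenging receptors ACKR2, ACKR3 and ACKR4 at -7.33, -7.11 and -4.78. The receptors and signalling genes of the IL6 family had 7 of 11 lower and 1 higher with a median of -1.10, among them CNTFR (-6.04), the LIF receptor LIFR (-3.28) and IL6R (-3.17).

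NF-kB targets and regulators did not move one way in FAPs, with 3 of 16 higher, 3 lower and a median of 0.25. SOD2, a mitochondrial enzyme that disarms superoxide, was higher at 3.69, while the adhesion molecules ICAM1 and VCAM1 were lower at -4.55 and -4.00. Of 7 other cytokines tested 3 were higher and 2 lower, with a median of -0.22. Among them the colony-stimulating factors CSF3 and CSF1 were higher, at 3.78 and 2.59, and IL15 lower at -7.00. In SCs 34.3% of genes were called. Of 5 genes of the interleukin 1 axis 4 were higher with a median of 1.53 (all genes -0.01), led by IRAK1 (2.33), IL18 (2.24) and the signalling receptor IL1R1. Beside these, 3 of 3 tested FAP markers were higher in SCs (median 2.72) and 4 of 4 tested SC markers lower (-3.37). The part of this marker shift was not tested. In VECs 35.1% of genes were called and 7 of 16 NF-kB genes were lower and 3 higher with a median of -0.39 (all genes -0.02), with SOD2 at 4.33, ICAM1 at -3.36 and NFKBIZ at -2.55.

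From P0 to P2 most of the genes were lower again in FAPs, which is also given without a test since the members were selected on P0 levels; edgeR called 23.3% of all genes in FAPs and 8.73% in SCs over this step. In FAPs of the 6 donors in unsorted or FAP cultures CXCL5 went from 8189 ± 1592 (5070 to 9552) to 1481 ± 278 (1268 to 1906), 5.53-fold lower in 6 of 6 and without overlap. IL1R2 went from 169 ± 63.4 to 17.5 ± 16.0, CXCL8 from 103 ± 31.6 to 13.7 ± 10.1, and IL6 from 439 ± 164 to 59.6 ± 22.0, each lower in 6 of 6 donors and without overlap. CXCL3 was 2.06-fold and CXCL2 1.57-fold lower, in 6 and 5 of 6 donors. CCL2 and CXCL12 were higher in 6 of 6 donors, CCL2 from 777 ± 198 to 1206 ± 129 with overlap and CXCL12 from 26.6 ± 8.13 to 129 ± 80.8 without. Markers moved in FAPs over the same step. Of the granulocyte markers 3 of 3 were lower (median log2 fold change -2.92, all genes 0.04), and of 6 VEC markers 5 were lower and 1 higher (median -5.74). SMMC markers were higher in 3 of 3 (median 4.17), FAP markers in 3 of 4 (2.67) and muscle fibre markers in 1 of 1 (4.59). The part of these in the result was not tested.

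SCs are given by culture over the same step. Over both cultures (n = 6) 3 of 3 granulocyte markers were lower in SCs (median log2 fold change -7.585, all genes -0.02). Muscle fibre markers were higher in 2 of 2 (median 8.98), SMMC markers in 2 of 3 (2.87), SC markers in 3 of 4 (1.22) and FAP markers in 1 of 3 (0.93). The part of these markers was not tested. In the 3 donors of SC cultures IL1R2 went from 256 to 549 at P0 down to 0.283 to 0.378 at P2, and the means differed 1073-fold. CXCL5 went from 764 ± 259 to 90.0 ± 92.6, IL6 from 63.0 ± 11.8 to 1.65 ± 0.490 and CCL2 from 374 ± 75.0 to 99.5 ± 73.7, each lower in 3 of 3 donors. In SCs of the 3 donors of unsorted cultures CXCL5 went from 1602 ± 540 to 810 ± 216, 1.98-fold lower, IL1R2 went from 162 ± 74.2 to 4.96 ± 1.46, 32.8-fold lower, IL6 was 6.59-fold lower, and CCL2 was higher in 3 of 3 donors, from 656 ± 200 to 1096 ± 334. CXCL12 was higher in 3 of 3 as well, from 6.11 to 10.9, and CXCL2 in 1 of 3, with means of 108 and 135, both with overlapping ranges. In SC cultures CXCL12 was lower in 3 of 3 donors, from 12.9 to 4.73, also with overlap.

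**Figure D3:**
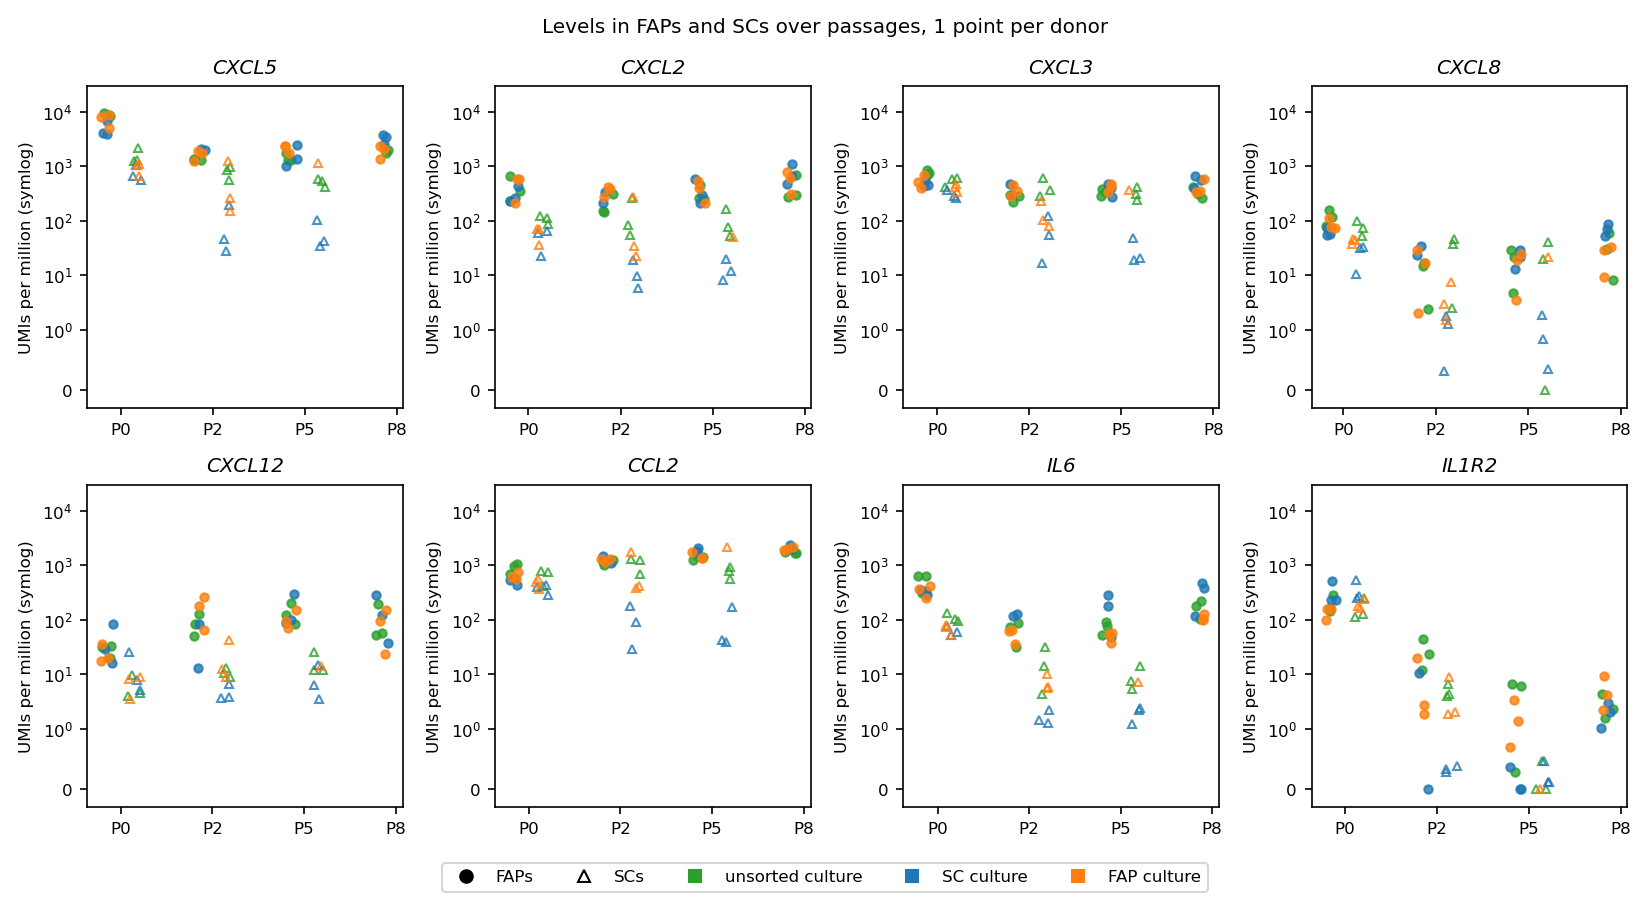
Level of each gene in CPM (y, linear near 0 and logarithmic above) from P0 to P8 (x); each point is 1 donor, filled circles are FAPs and open triangles SCs, and colours give the later culture (green unsorted, blue SC, orange FAP culture), SCs at P8 not drawn. At P2 and P5 SCs of SC cultures lie below SCs of unsorted cultures for CXCL5 (27.9 to 196 against 569 to 985 at P2).

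Unless said otherwise, the comparisons that follow were tested with edgeR since they do not use the contrast with muscle, although the genes were proposed with earlier results of these data known. Between P2 and P5 none of the 8 members tested in FAPs was called by edgeR, where 3.34% of genes were, and the largest shift was that of IL1R2 from 17.5 ± 16.0 to 3.13 ± 2.81 (SD, n = 6). It was lower in 6 of 6 donors, with a log2 fold change of -2.37 ± 0.81 (SE) and an adjusted p of 0.0592, and with the donor as a block the change was -2.24 with an adjusted p of 0.00618. DESeq2 called it too, at -2.37. CCL2 passed the p but not the fold cut: it was higher in 6 of 6 donors, from 1206 ± 129 to 1458 ± 175, by 0.38 ± 0.08 with an adjusted p of 0.00738. CXCL5 stood at 1481 ± 278 and 1793 ± 475, with an adjusted p of 0.104.

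Between P5 and P8 IL6 was the 1 of 8 members called in FAPs, where edgeR called 2.02% of genes. Its level was 62.0 ± 19.7 at P5, from 37.9 to 92.7, and 139 ± 49.4 at P8, with a median of 118 and a highest of 221. Every donor at P8 was above every donor at P5, 6 of 6 donors were higher, and the log2 fold change was 1.04 ± 0.25 with an adjusted p of 0.0210. CXCL5 was at 0.0025 ± 0.17 on that scale, and CCL2, at 1862 ± 183 after 1458 ± 175, was higher in 6 of 6 donors by 0.22 ± 0.08 with an adjusted p of 0.0824. From the other lists IL1A, an alarm cytokine, was higher at 2.18 and CSF2 at 2.07, while none of 19 NF-kB genes was called (median -0.11, all genes -0.01). The SC cultures, left out of that fit, showed FAPs at P8 as well, and there IL6 stood at 116, 385 and 476 in the 3 donors. At P5 it had stood at 48.65, 183 and 291 in FAPs of these cultures, so the passages overlapped there.

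In SCs none of 7 members was called by edgeR between P2 and P5, where 0.195% of genes were; 2069 genes had an unadjusted p under 0.05 and DESeq2 called 93. IL6 had the widest change at -1.10 ± 0.94, and the SE of CXCL5 was 0.93 there against 0.16 in FAPs. At P8 sums of at least 10 SCs were left in 4 donors. CXCL5 stood at 844 and 1640 in donors 1 and 9 of unsorted cultures and at 1108 and 220 in donors 6 and 10 of SC cultures, so the cultures overlapped. IL1R2 had no UMI in the 2439351 UMIs of SCs at P8, which allows up to 3 UMIs in that total for counting error only.

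Of 8 members 5 were called lower in SCs than in FAPs at P2, where edgeR called 14% of genes, 7.13% as lower. The SC sums included those of FAP cultures, with 95, 50 and 18 cells in donors 4, 7 and 8. The FAP sums included those of SC cultures, with 19 and 12 cells in donors 5 and 10. The FAP marker DCN had a mean of 3628 in SCs of FAP cultures, against 1350 in SCs of SC cultures. CXCL12 was at 12.3 ± 11.8 in SCs (n = 9) and 109 ± 80.0 in FAPs (n = 8), a log2 fold change of -3.44 ± 0.56 with an adjusted p of 0.000124. IL6 was at 8.58 ± 9.83 and 75.6 ± 35.2, at -3.19 ± 0.60 with an adjusted p of 0.000480, and IL1R2 at 3.18 ± 3.02 and 14.5 ± 14.9, at -3.23 ± 0.86 with an adjusted p of 0.00761. These 3 genes were lower in SCs, with CXCL12 and IL6 lower in 8 of 8 donors with both types. IL1R2 was higher in SCs in 3 of the 8 donors, and its groups overlapped, with 0.283 to 8.82 in SCs and 0 to 44.8 in FAPs. PDGFRA, DCN and LUM in SCs at P2 stood at 20.55%, 37.3% and 44.5% of the FAP level of the same donor. CXCL12 and IL6 stood at 14.8% and 14.5%, CXCL2 and CXCL5 at 34.1% and 35.85%. CCL2, IL1R2, CXCL3 and CXCL8 stood at 61.1% to 102%. The range of each overlapped with that of a marker, so these levels are not read here as expression by SCs.

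CXCL5 and CXCL2 were called as well but depended on which cultures entered. CXCL5 was at 483 ± 450 in SCs, from 27.9 to 1234, and at 1622 ± 354 in FAPs, from 1268 to 2116, without overlap, at -1.77 ± 0.57 with an adjusted p of 0.0248 by edgeR. With the donor as a block it was at -2.39 with an adjusted p of 0.0714. In the unsorted cultures alone it was at -0.80 with an adjusted p of 0.0161, under the fold cut. CXCL2 was at -1.84 ± 0.65 with an adjusted p of 0.0406 and at -0.67 in the unsorted cultures alone. With sums thinned to the smallest neither was called, CXCL5 at -1.70 and CXCL2 at -1.67. CXCL3, CXCL8 and CCL2 were not called, but with sorted cultures alone all 3 were lower in SCs, at -2.67, -4.02 and -3.86, whereas in unsorted cultures CXCL3 and CXCL8 had the other sign at 0.56 and 1.29. IL6 in unsorted cultures alone was at -2.004 and not called.

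At P5 the same comparison called 4 of 7 members lower, against 16.3% of genes in all and 8.89% lower. The SC sums there included 10 cells of donor 4 in a FAP culture. The FAP sums included 593, 31 and 70 cells of donors 5, 6 and 10 in SC cultures. IL6 was at 5.72 ± 4.51 in SCs (n = 7) and 99.5 ± 84.2 in FAPs (n = 9), without overlap, at -4.81 ± 0.59 with an adjusted p of 6.08e-06 by edgeR. CXCL12 was at 12.7 ± 7.16 and 135 ± 74.7, without overlap, at -3.78 ± 0.44 with an adjusted p of 3.58e-06. CXCL2 at -2.87 ± 0.56 (adjusted p of 0.000614) and CXCL5 at -2.30 ± 0.60 (adjusted p of 0.00563) were lower too, the former without overlap. CCL2 at -1.44 ± 0.61 was not called over all donors, with an adjusted p of 0.0787, and was called at -4.38 in sorted and at -1.10 in unsorted cultures alone and at -2.04 with sums of at least 30 cells. In sorted cultures alone CXCL3 (-4.03) and CXCL8 (-4.10) were called as well.

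Of 4 other CXC chemokines tested 3 were higher and 1 lower in SCs than in FAPs at P2 and at P5, with medians of 5.03 and 5.57, where 6.86% and 7.39% of all genes were higher. CXCL9, CXCL10 and CXCL11, which attract T cells through CXCR3, were higher at P2 by 5.07, 5.28 and 5.00 and at P5 by 5.42 to 5.78. CXCL16, named after its values had been seen, was lower at -1.71 and -2.03. Of 19 NF-kB genes 7 were lower in SCs and none higher at P2 (median -0.67, all genes 0.04), and 11 lower and 1 higher at P5 (median -1.06, all genes -0.01), led at P2 by VCAM1 (-5.13), the prostaglandin synthase PTGS2 (-4.56) and NFKBIE (-2.02). GRO1, at -0.86, was not called at P2.

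SCs of unsorted and of SC cultures were set side by side after the levels had been seen, so this is a description with no test. How many of all genes separate the same donors was not counted at P0, P2 or P5. Nothing is therefore read from the number of members without overlap, here or below. At P2 CXCL5 stood at 569, 877 and 985 in unsorted and at 27.9, 45.7 and 196 in SC cultures, and the means differed 9.01-fold. CCL2 stood at 710, 1275 and 1301 against 29.1, 93.2 and 176. IL1R2 was low in both, at 3.95, 4.30 and 6.63 against 0.283, 0.340 and 0.378. The unsorted cultures were the higher ones for these genes, without overlap, and likewise for CXCL2 (56.0 to 264 against 5.92 to 19.3), CXCL3 (288 to 620 against 16.7 to 124), IL6 (4.30 to 32.3 against 1.29 to 2.21), CXCL8 (2.51 to 47.1 against 0.315 to 1.83) and CXCL12 (8.84 to 13.3 against 3.68 to 6.71).

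At P5 CXCL5 stood at 419, 539 and 576 in unsorted against 34.5, 43.4 and 106 in SC cultures, 8.36-fold. CXCL3 stood at 239, 311 and 411 against 18.7, 21.2 and 49.0, 10.8-fold, and CCL2 at 562 to 954 against 39.4 to 174, 9.02-fold. CXCL2 (53.8 to 165 against 8.05 to 20.1) and IL6 (5.29 to 14.3 against 1.23 to 2.43) did not overlap either. CXCL12, CXCL8 and IL1R2 overlapped, IL1R2 with 1 UMI in unsorted and 12 in SC cultures. SCs of FAP cultures, left out above, numbered 163 in 3 donors at P2. There CXCL5 stood at 149, 267 and 1234, CCL2 at 381, 415 and 1734, and the FAP marker DCN at a mean of 3628.

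Several things moved with that difference. Donors 6 and 10 of the SC cultures were male, while every donor of the unsorted cultures was female. The same donors differed at P0 already, before any sort, and for CXCL5, CXCL2, CXCL3, CXCL8 and IL6 those of the later unsorted cultures were higher in SCs without overlap. CXCL5 was then at 1275 to 2225 against 561 to 1055, CXCL2 at 88.1 to 121 against 22.6 to 66.1, and CXCL3 at 415 to 626 against 267 to 364. CXCL8 was at 53.2 to 97.7 against 10.8 to 33.7 and IL6 at 96.5 to 134 against 53.6 to 76.3. CCL2 and CXCL12 overlapped at P0, and IL1R2 was lower in those donors, with 114 to 248 against 256 to 549.

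Unsorted cultures gave 517 SCs at P2 and 550 at P5, SC cultures 3299 and 3016, at a median of 18431 and 14793 against 25083 and 21298 UMIs per cell. FAP markers in SCs at P2 were higher in unsorted cultures in mean, DCN at 3236 against 1350, LUM at 1329 against 512, PDGFRA at 65.2 against 27.5 and SCARA5 at 5.60 against 1.09. At P5 DCN was at 1467 against 1309, LUM at 1201 against 1030, PDGFRA at 49.1 against 26.7 and SCARA5 at 1.90 against 1.13. The SC marker MYF5 was lower in SCs of unsorted cultures without overlap at both passages, with 93.9 to 127 against 146 to 157 at P2 and 103 to 127 against 140 to 195 at P5, while PAX7 overlapped. The part of each in the result was not tested.

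**Figure D4:**
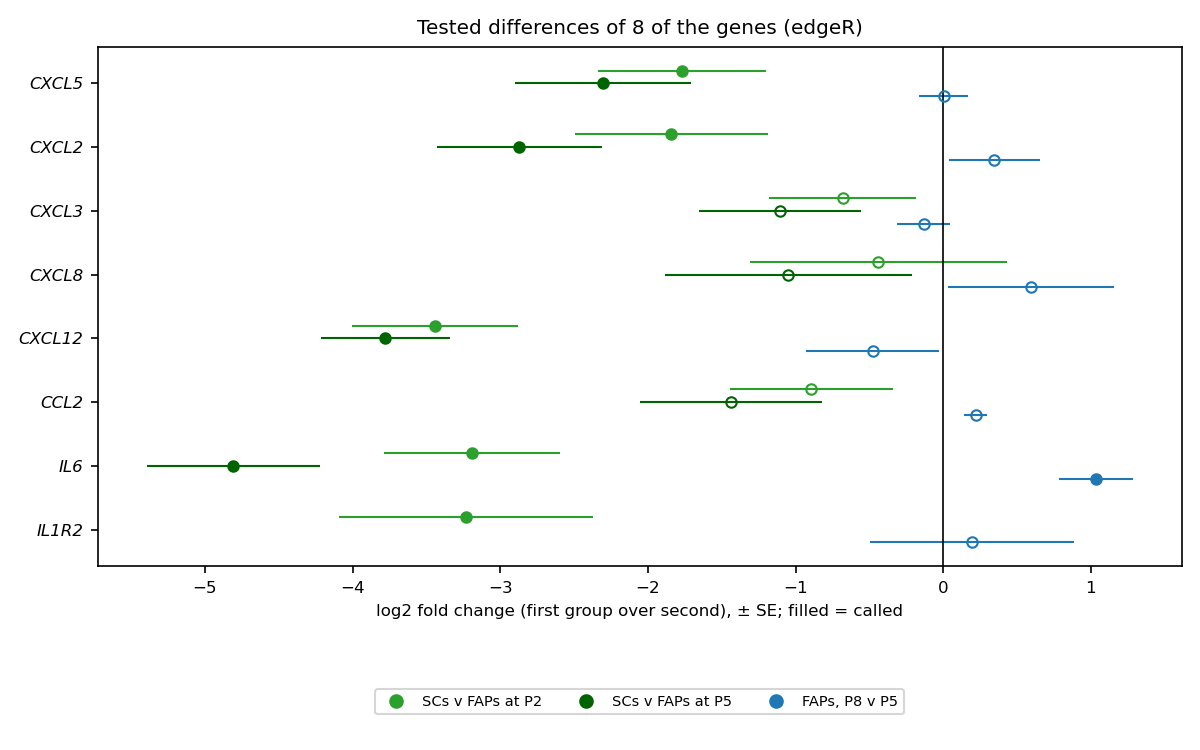
Log2 fold change with its SE (x) of 8 genes (y) in 3 tested comparisons given by colour, with filled points for genes called by edgeR at an adjusted p under 0.05 and a change over 1 in size. In SCs against FAPs the filled points lie left of 0, with IL6 at -3.19 at P2 and -4.81 at P5, and between P5 and P8 in FAPs only IL6 is filled among the 8.

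FAPs were compared between cultures at P2 and at P8. At P2 none of 8 members was called by edgeR between FAP and unsorted cultures, where it called 0.017% of genes, that is 2, while 1159 had an unadjusted p under 0.05 and DESeq2 called 77. CXCL5 was at 1268, 1758 and 1906 in FAP and at 1288, 1304 and 1360 in unsorted cultures. At P8 FAPs of SC cultures were compared with FAPs of FAP cultures, and none of 8 members was called by edgeR over all donors, where 1.75% of genes were. CXCL5 stood at 2607, 3499 and 3735 against 1362, 2093 and 2381 and CXCL8 at 52.2, 72.4 and 87.5 against 9.47, 29.5 and 33.8, both without overlap, at 0.70 ± 0.20 with an adjusted p of 0.124 and 1.48 ± 0.44 with an adjusted p of 0.154. IL6 was at 1.51 ± 0.50 with an adjusted p of 0.180 by edgeR, and was called without donor 10, at 1.92 with an adjusted p of 0.0124. DESeq2 called IL6 and CXCL8 there. FAP markers had a median log2 fold change of -2.08 in the same fit, with 1 of 4 called lower (all genes 0.004). Their part in the result was not tested.

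Age was compared at P0, where all cells had been grown alike. The males were donor 10 among the calves and donors 6 and 8 among the adults. None of 8 members was called between 5 calves and 4 adults in FAPs or in SCs, and neither was any gene by edgeR, 0% in both, while 575 and 1018 genes had an unadjusted p under 0.05 and DESeq2 called 8 and 5. In FAPs IL6 was lower in calves by 0.63 ± 0.21 with an adjusted p of 0.928, and CXCL5 by 0.49 ± 0.25 with an adjusted p of 0.967. The members in FAPs ran from -0.74 ± 0.33 for CXCL2 to 0.57 ± 0.50 for CXCL12, and in SCs from -0.70 ± 0.49 for CXCL8 to 1.09 ± 0.48 for CXCL12.

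The genes whose mean level followed each member most closely were looked for over 19 pairs of cell type and timepoint, which share libraries and depth. For CXCL5 these were AP1S1, VCP and NSDHL with Pearson's r of 0.969, 0.956 and 0.953, for CXCL2 SOAT1, CSTB and SLC2A6 with 0.917, 0.917 and 0.909, and for CXCL8 the ferritin chain FTH1, ANKRD11 and C14H8orf82 with 0.945, 0.909 and 0.899. For CXCL12 they were NOSTRIN, HEY1 and SCARA5 with 0.884, 0.851 and 0.843, and for CXCL3 RAB5C, RGL1 and GPATCH1 with 0.865, 0.854 and 0.832. CCL2 was nearest to MMP19, F2RL2 and MAPK6 with 0.914, 0.906 and 0.896. IL6 was nearest to TIMM10B, MYBL2 and FBP2 with 0.913, 0.911 and 0.903, and IL1R2 to DNMT1, PPM1G and HNRNPAB with 0.926, 0.924 and 0.917.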

How the data were processed

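Cells of 8 samples (sequencing runs) at 5 timepoints had been processed by the authors with Cell Ranger 6.0.1 against ARS-UCD1.2, assigned to donors by genotype with demuxlet, filtered on quality and annotated by cluster; the deposited matrices hold whole UMI counts per gene and cell. How doublets were treated is not given in the sources used here, and no doublet caller was run. Cells, donors and types came from the deposited cell table, of which 12 columns of per-cell values were not used. UMI counts were summed per donor, annotated type and timepoint where at least 10 cells were present, and printed as CPM of the sum. The protocol reads one transcript end, so levels of different genes were not ranked. Sums were tested in R 4.3.3 with edgeR 4.0.16 (TMM, filterByExpr, robust quasi-likelihood), adjusted by Benjamini-Hochberg over all genes tested, and called at an adjusted p under 0.05 and an absolute log2 fold change over 1. SE is the log2 fold change divided by the square root of F. Counts per cell were thinned without replacement to 2000 UMIs (4000 as an alternative). DESeq2 1.42.0, no filter on low counts, at least 30 cells per sum, sums thinned to the smallest, the donor as a block, sex as a covariate, cultures taken alone and each donor left out were alternatives. Each donor was left out only in the comparisons of age and of FAPs between cultures. Same-numbered donors are the same animal, so the block pairs them.

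The edgeR step was tested on simulated counts: for FAPs at P5 against P2, 94.3% of genes changed by a log2 of 2 were called among 11760 genes. Python 3.11.15 with numpy 2.4.6, pandas 2.3.3, scipy 1.17.1 and matplotlib 3.10.9 was used for the rest. The members and lists were chosen with earlier results of these data known. Named beside the members were at most the 3 called genes of a list with the largest log2 change in a comparison, markers that check a label, and the 3 genes most correlated with each member. GRO1, as a closely related neighbour, is named for P0 against muscle and for SCs against FAPs at P2. CXCL16 was named beyond the rule for lists after its values were seen. P-values measure the spread between donors. No sequences of the genes were used here.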

Additional observations from a re-analysis of the deposited data

Results flagged for a closer look

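In 24 of 107 groups of 4 to 10 donors, 1 donor stood apart from the rest by Dixon's criterion. For normally distributed values chance gives about 1 in 20 groups. The levels were not transformed, the groups shared donors, and each value that stood apart was the highest of its group. The 24 are thus not read as an excess. The values that stood apart for CXCL5 were those of donor 2, in VECs of muscle (75.2 CPM), SCs at P0 (2225) and VECs at P0 (1145). For CXCL2 they were donor 6 in VECs of muscle (593), donor 9 in SMMCs at P0 (213) and donor 7 in LECs at P0 (1951). For CXCL3 they were donor 4 in SCs (809), donor 5 in VECs (8107) and donor 10 in SMMCs (1056), all in muscle, and for CXCL8 donor 6 in VECs of muscle (75.1). For CXCL12 they were donor 5 in FAPs (85) and in SCs (25.6) at P0, donor 6 in SMMCs at P0 (71.0) and donor 7 in SCs at P2 (42.6). For CCL2 they were donor 10 in SCs of muscle (73.1) and donor 4 in SCs at P5 (2184), a sum of 10 cells. For IL6 they were donor 5 in FAPs of muscle (36.6), donor 9 in MPs at P0 (925) and donor 9 in SCs at P2 (32.3). For IL1R2 they were donor 5 in FAPs (525) and SCs (549), donor 10 in VECs (51.9) and donor 6 in MPs (604) at P0, and donor 4 in FAPs at P8 (9.46).

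CXCL3 moved in opposite directions in both kinds of endothelial cells from muscle to P0: 3 of 3 donors were higher in LECs, by a median of 791 CPM, and 9 of 9 donors were lower in VECs, with a median change of -2757. This difference was not tested.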

How the results depend on the processing

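The members called between P8 and P5 in FAPs and, for CXCL12 and IL1R2 at P2 and all 4 called genes at P5, between SCs and FAPs kept their calls under every alternative that gave them a value. Fits with each donor left out were not run for these comparisons. For IL6 at P8 against P5 the log2 fold change ran from 1.01 to 1.12 over its 4 alternatives, close to the cut of 1. With no filter on low counts the counts of called genes were 6925 for FAPs, 5286 for SCs and 5030 for VECs at P0 against muscle (3997, 1789 and 2071 with it), 1473 for SCs at P2 against P0 (865), and 2814 and 3102 for SCs against FAPs at P2 and P5 (1605 and 1855). With sums thinned to the smallest they were 1586, 509 and 1136 at P0 against muscle, 512 for SCs at P2 against P0, 97 for FAPs at P8 against P5 (221), 6 for SCs at P5 against P2 (21), 276 and 203 for SCs against FAPs and 1 for SCs of calves against adults (0). DESeq2 called 93 genes for SCs at P5 against P2, 8 and 5 for calves against adults in FAPs and SCs, 77 for FAPs at P2 (2) and 414 for FAPs at P8 (173). The replicate block, which pairs sums of the same donor, gave 246 genes for SCs at P5 against P2; sorted cultures alone gave 2934 for SCs against FAPs at P5. Leaving out each donor gave 0 to 1 genes for FAPs and 0 to 40 for SCs of calves against adults, 0 to 10 for FAPs at P2 and 1 to 523 for FAPs at P8 (1 without donor 7, 523 without donor 4). The cause of these shifts was not tested beyond the fewer counts or samples used.

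Changes of sign were found only in genes that were not called: CXCL5 in FAPs at P8 against P5 without a filter (-0.024), and CXCL3 (0.56) and CXCL8 (1.29) at P2 and CXCL8 (0.093) at P5 between SCs and FAPs of unsorted cultures. With a donor left out they were CXCL12 (-0.032 to 0.76) and IL1R2 (-0.43 to 0.36) in FAPs and IL1R2 (-0.049 to 0.57) in SCs of calves against adults, CXCL8 in FAPs at P2 (-0.35 to 0.94), and CXCL12 (-0.23 to 1.29), CXCL2 (-0.018 to 0.64) and CCL2 (-0.047 to 0.067) in FAPs at P8.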
